A study of Arabidopsis thaliana with 24 samples.

Results

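In Arabidopsis thaliana, 15 loci had higher values after the auxin indole-3-acetic acid (IAA) in the mutant axr3-1. In the wild type, these loci had mean log2 values with and without IAA that differed by less than 0.3. They are the 15 probe sets, of 11933 whose single annotated gene has only a locus code, whose mean log2 value was at least 0.6 higher on the axr3-1 IAA arrays than on the axr3-1 control arrays. In addition, the lowest axr3-1 IAA array had to lie above the highest axr3-1 control array. The Col IAA and Col control means had to differ by less than 0.3, and the axr3-1 control and Col control means by less than 1. The loci were thus chosen by their values on the axr3-1 and Col arrays, which are given as a description with no test. Only the 12 arrays of the other genotypes are independent of the choice. The spread used in their tests was taken from all groups, axr3-1 and Col included.

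Expression was measured on 24 Affymetrix ATH1 arrays, 3 in each of 8 groups. The groups are axr3-1 with IAA and axr3-1 control, iaa17-6 with IAA and iaa17-6 control, iaa5-1 iaa6-1 iaa19-1 (written iaa5 iaa6 iaa19, or the triple mutant) with IAA and as control, and Columbia wild type (Col) with IAA and as control. All were light-grown seedlings in liquid culture, 7 days old and of the Columbia ecotype, and received either 5 µM IAA or, as control, ethanol for 2 h at 24 °C. The labels do not say whether the 3 arrays of a group came from separate cultures, so a p-value here reflects array-to-array spread that could be wholly technical. RNA came from whole seedlings, so fewer cells of a type and less RNA per cell cannot be told apart.

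Auxin acts by triggering the breakdown of Aux/IAA proteins, repressors that hold back the transcription of auxin-induced genes. IAA17, also called AXR3, is one of these repressors. The axr3-1 allele is a dominant change in the part of the protein that auxin receptors recognise, which makes the repressor long-lived. It is known for seedlings with short, agravitropic roots that lack root hairs. The iaa17-6 line and the triple mutant carry loss-of-function alleles, of IAA17 and of 3 related repressor genes. The annotation used here gives the 15 loci no name and no role, so none is given below.

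All 4 auxin-induced genes listed as a check of the treatment were higher with IAA in every genotype, by amounts that differed between genes. The homeobox gene HAT2 was 2.93 higher with IAA than in control in axr3-1, 2.92 in iaa17-6, 3.02 in the triple mutant and 3.00 in Col (differences of mean log2 values). The other 3 had smaller differences in axr3-1 than in Col. For the auxin-conjugating enzyme gene GH3.3 these were 4.47 and 5.86. Its means with IAA were close, at 12.41 in axr3-1 and 12.62 in Col, and its control mean was higher in axr3-1 (7.94 against 6.76). For the Aux/IAA gene IAA29 the differences were 2.71 and 3.49, and for LBD29, a regulator of lateral root initiation, 2.02 and 3.16. Of the other genes of lateral root initiation, LBD16 had 0.84 in axr3-1 and 1.99 in Col, and PUCHI was at the lowest value of the scale on all 6 axr3-1 arrays and had 0.93 in Col. These differences between genotypes were not tested. The root marker PYK10 had group means between 12.37 and 12.61 throughout. All 3 measured root hair genes (EXPA7, EXPA18 and XTH26) stood at the lowest value of the scale on all 6 axr3-1 arrays, with group means of 6.32 to 7.57 in the other genotypes, and none of the 6 listed genes of photosynthetic tissue has a probe set named here. The part of root hairs in the values of axr3-1 was not tested. The scale has a floor at 5.64, the log2 of 50. Of the 15 loci, 11 lay above it on every array, and the other 4 reached it on at least 1.

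The choice left few loci. Of the 11933 probe sets, 99 met the smallest difference in axr3-1, 91 also had axr3-1 arrays that did not overlap, 16 also differed little in Col, and 15 also differed little in control. By the rule all 15 had every axr3-1 IAA array above every axr3-1 control array, a pattern seen in 7.48% of the 14192 tested probe sets. The difference in axr3-1 was between 0.60 and 1.22, with a median of 0.72, and over all tested probe sets the median was 0. In Col the same 15 loci had a median difference of 0.02, with a lowest of -0.22 and a highest of 0.29.

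**Figure D1:**
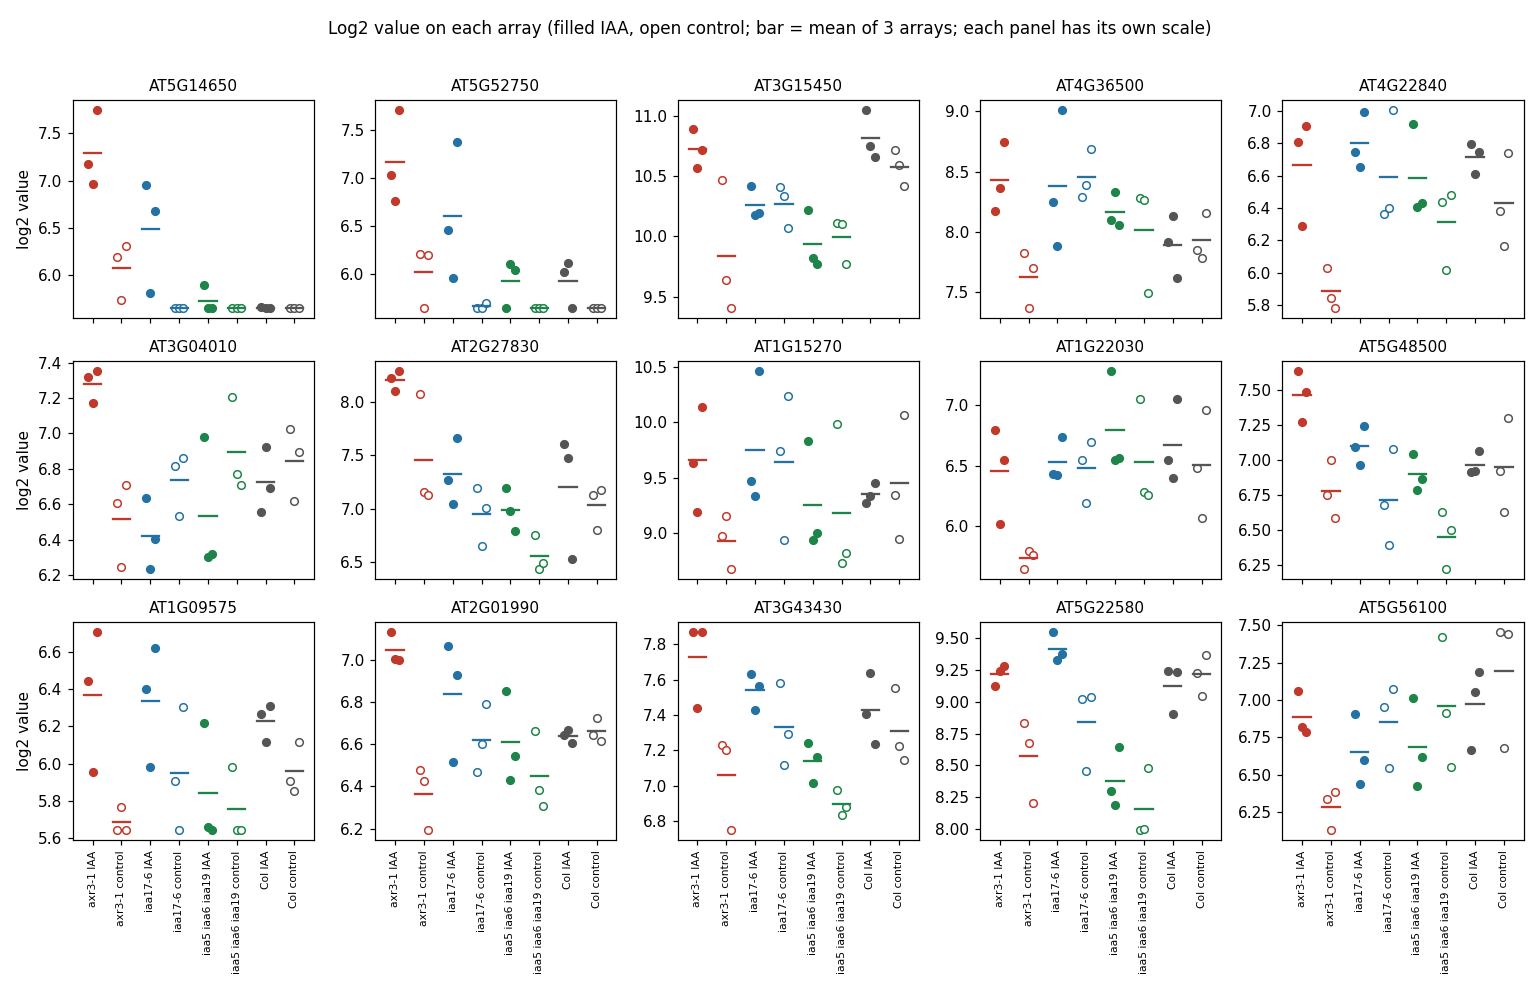
Log2 values of the 15 loci on each of 24 arrays, by group (x axis) and with a separate y scale in each panel; filled points are IAA arrays, open points control arrays, and bars the means of 3. AT5G14650 and AT5G52750 lay between 6.76 and 7.74 on the axr3-1 IAA arrays and between the floor of 5.64 and 6.12 on the Col arrays.

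AT5G14650 and AT5G52750 had the largest differences. AT5G14650 read 7.18, 6.96 and 7.74 on the axr3-1 IAA arrays, against 6.19, 5.73 and 6.31 on the axr3-1 control arrays, a 2.33-fold difference. In Col it read 5.66, 5.64 and 5.64 with IAA and stood at the floor on all 3 control arrays. A Col response at levels under the floor would not show. All 6 axr3-1 arrays thus lay above all 6 Col arrays, already without IAA. AT5G52750 read 7.03, 6.76 and 7.70 with IAA and 6.21, 5.64 and 6.20 in control in axr3-1, a 2.21-fold difference. One axr3-1 control array was at the floor, so the true difference may be larger. In Col it read 6.02, 6.12 and 5.64 with IAA and was at the floor on the 3 control arrays. Its Col difference of 0.28 lay just inside the limit of 0.3. This difference too may be larger in truth, and could then pass the limit.

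AT2G27830 was the other locus with a higher mean in axr3-1 control than in Col control. It read 8.22, 8.10 and 8.29 with IAA and 8.07, 7.15 and 7.13 in control in axr3-1, against 7.61, 7.48 and 6.52 with IAA and 7.12, 6.80 and 7.17 in control in Col. One axr3-1 control array lay close to the IAA arrays, with a gap of 0.03, the smallest of the 15. On the axr3-1 IAA arrays these 3 loci were above every Col array, with a difference from Col IAA of 1.64 for AT5G14650, 1.24 for AT5G52750 and 1.00 for AT2G27830.

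The remaining 12 loci had lower means in axr3-1 control than in Col control, with differences between -0.91 and -0.17 and a median of -0.42. The same axr3-1 control arrays enter this difference and the one that chose the loci, so a low control value favours both. For 6 of the 12 every axr3-1 control array lay below all 6 Col arrays: AT4G22840, AT1G22030, AT1G09575, AT2G01990, AT5G22580 and AT5G56100. Among all 15, these 6 had axr3-1 control arrays below the Col control arrays without overlap and 1 had them above, where 9.63% and 11.6% of tested probe sets did so. The share of tested probe sets below all 6 Col arrays is not given here. Both sets of control arrays entered the rule, so nothing is read from these counts.

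With IAA, several of the 12 reached values within the Col range. AT5G22580 read 9.12, 9.24 and 9.28 with IAA and 8.83, 8.68 and 8.21 in control in axr3-1. On Col arrays it read 9.24, 8.90 and 9.24 with IAA and 9.23, 9.05 and 9.37 in control. The axr3-1 control arrays alone were low, and the axr3-1 IAA mean differed from the Col IAA mean by 0.09. AT5G56100 had the lowest axr3-1 control level relative to Col control, with 7.06, 6.82 and 6.78 on axr3-1 IAA arrays and 6.34, 6.13 and 6.38 on axr3-1 control arrays. In Col it read 6.67, 7.05 and 7.19 with IAA and 7.45, 6.68 and 7.44 in control. Its axr3-1 IAA arrays fell among the Col arrays, its axr3-1 control arrays below them.

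AT1G22030 read 6.79, 6.02 and 6.54 with IAA and 5.64, 5.79 and 5.76 in control in axr3-1, where 1 control array was at the floor. Its Col arrays read 6.55, 6.40 and 7.05 with IAA and 6.48, 6.07 and 6.96 in control, so 1 axr3-1 IAA array and all 3 axr3-1 control arrays lay below every Col array. AT4G22840 read 6.81, 6.29 and 6.90 with IAA and 6.03, 5.85 and 5.78 in control in axr3-1, against 6.79, 6.61 and 6.74 with IAA and 6.38, 6.17 and 6.74 in control in Col. AT3G15450 read 10.89, 10.57 and 10.72 with IAA and 10.47, 9.64 and 9.40 in control in axr3-1. Its Col arrays lay between 10.42 and 11.05. In these 3 loci the axr3-1 IAA mean was lower than the Col IAA mean by a small amount (-0.21, -0.05 and -0.09). In all, 7 of the 12 had an axr3-1 IAA mean within 0.3 of the Col IAA mean.

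Another 3 of the 12 were above Col with IAA, with every axr3-1 IAA array above all 6 Col arrays. The share of tested probe sets above all 6 Col arrays is not given here, and axr3-1 IAA values chose the loci. Nothing is therefore read from the number of loci above every Col array. AT3G04010 read 7.32, 7.17 and 7.35 with IAA and 6.61, 6.24 and 6.71 in control in axr3-1, against 6.56, 6.93 and 6.69 with IAA and 7.03, 6.62 and 6.90 in control in Col. AT2G01990 had Col values of 6.61 to 6.72 over 6 arrays, with axr3-1 IAA arrays at 7.13, 7.00 and 7.00 above them and axr3-1 control arrays at 6.48, 6.43 and 6.19 below. AT4G36500 read 8.18, 8.36 and 8.75 with IAA and 7.82, 7.36 and 7.70 in control in axr3-1, and the highest Col array was at 8.15. AT1G09575, one of those with low axr3-1 control arrays, read 6.44, 5.96 and 6.71 with IAA and 5.64, 5.77 and 5.64 in control in axr3-1. Of these control arrays 2 were at the floor. In Col it read 6.27, 6.11 and 6.31 with IAA and 5.91, 5.85 and 6.12 in control. That is a difference of 0.27 in the same direction, with a gap of -0.0012, so its Col arrays barely overlapped. Of the remaining 3 loci, AT1G15270 and AT3G43430 overlapped with Col both with IAA and in control, and AT5G48500 overlapped in control, while its axr3-1 IAA arrays lay above its Col IAA arrays. AT5G48500 averaged 7.46 ± 0.18 with IAA and 6.78 ± 0.21 in control in axr3-1 (SD, n = 3 each), AT1G15270 9.65 ± 0.47 and 8.93 ± 0.24, and AT3G43430 7.73 ± 0.25 and 7.06 ± 0.27. Their Col averages lay between those axr3-1 averages, at 6.96 ± 0.09 with IAA and 6.95 ± 0.34 in control for AT5G48500, 9.35 ± 0.09 and 9.45 ± 0.57 for AT1G15270, and 7.43 ± 0.20 and 7.31 ± 0.21 for AT3G43430.

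**Figure D2:**
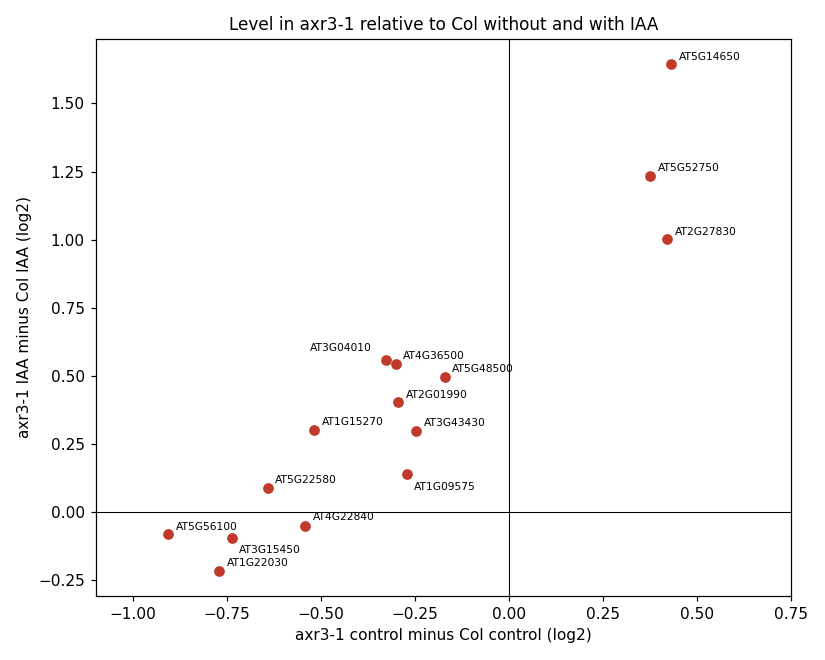
Difference between axr3-1 and Col in mean log2 value, with IAA (y axis) and in control (x axis), 1 point per locus. The 3 loci at the upper right (AT5G14650, AT5G52750 and AT2G27830) were higher in axr3-1 in both, and the other 12 were lower in control, between -0.91 and -0.17; the axes share no array, but both enter the differences that chose the loci.

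With IAA, 7 of the 15 loci had axr3-1 arrays above the Col arrays without overlap and 0 had them below, where 12.2% of tested probe sets did so in each direction. Since IAA values in axr3-1 chose the loci, nothing is read from these counts.

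The arrays of iaa17-6 and of the triple mutant did not enter the rule. There 2 of the 15 loci rose and 0 fell with IAA in iaa17-6, and 0 rose or fell in the triple mutant. A limma fit across the 14192 probe sets was used, with p-values adjusted by Benjamini-Hochberg over all of them and a threshold of 0.05. Its spread also came from the axr3-1 and Col arrays, which chose the loci, so these tests were not wholly free of the choice. With only the iaa17-6 arrays fitted, 0 of the 15 loci were called there. In iaa17-6 the fit of all groups called 7.72% of all probe sets, 4.41% higher and 3.31% lower. In the triple mutant it called 7.27%, 3.68% higher and 3.59% lower. Of 8 listed stress and wounding genes, PDF1.2 alone has a probe set named here, and it averaged 7.67 ± 0.65 with IAA and 6.93 ± 0.57 in control in iaa17-6, against 6.24 ± 0.34 and 6.25 ± 0.52 in the triple mutant (SD, n = 3 each). In axr3-1 it averaged 5.94 ± 0.51 with IAA and 6.09 ± 0.77 in control. The part of stress in the iaa17-6 values was not tested. At an unadjusted p under 0.05 there were 4 loci in iaa17-6 and 1 in the triple mutant. Among all tested probe sets, 2433 and 2097 passed that unadjusted limit.

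The 2 loci that rose in iaa17-6 were those with the largest difference in axr3-1. AT5G14650 read 6.95, 5.81 and 6.68 on the iaa17-6 IAA arrays, against the floor on all 3 iaa17-6 control arrays, and was at least 1.79-fold higher (log2 0.84, SE 0.22, limma adjusted p = 0.0185). AT5G52750 read 6.46, 5.96 and 7.38 with IAA and 5.64, 5.64 and 5.70 in control in iaa17-6 (log2 0.94, SE 0.27, limma adjusted p = 0.0355), with 2 control arrays at the floor. Their IAA arrays spread widely, by an SD of 0.60 and 0.72, but did not overlap with the control arrays. The SE rests on a spread shared by all 8 groups. For both loci the triple-mutant and Col control arrays stood wholly at the floor, with an SD of 0, which lowers the SE. So the name "induced only in axr3-1" goes against the data for these 2. They also met the rule with iaa17-6 arrays in place of the axr3-1 arrays. That application uses the same iaa17-6 arrays as the calls and shares the 6 Col arrays, so it adds no separate evidence. Both calls were lost without iaa17-6 control replicate 1, 2 or 3 or IAA replicate 1 or 3, with limma adjusted p = 0.0513 to 0.121 for AT5G14650 and 0.0614 to 0.223 for AT5G52750. In a fit of the iaa17-6 arrays alone limma gave adjusted p = 0.342 and adjusted p = 0.39, the highest of 14 alternatives each, of which the lowest were 0.000137 and 0.00353.

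In the triple mutant both loci stayed near the floor. AT5G14650 read 5.89, 5.64 and 5.64 with IAA, against the floor on the 3 control arrays (log2 0.08, SE 0.22). AT5G52750 read 5.64, 6.10 and 6.04 with IAA and was at the floor on the 3 control arrays (log2 0.28, SE 0.27). The difference between the iaa17-6 and triple mutant responses was tested directly and was not past the threshold for any of the 15 loci (limma, lowest adjusted p = 1), where 0.0705% of all probe sets were (0.0564% higher and 0.0141% lower in iaa17-6). It was 0.76 for AT5G14650 (95% interval 0.12 to 1.39, unadjusted p = 0.0229, the only one of the 15 under 0.05, beside 303 of all 14192 probe sets) and 0.65 for AT5G52750 (-0.14 to 1.45).

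AT5G22580 was close to the threshold in iaa17-6. It read 9.55, 9.32 and 9.38 on iaa17-6 IAA arrays and 9.02, 8.46 and 9.04 on iaa17-6 control arrays, without overlap (log2 0.58, SE 0.18, limma adjusted p = 0.0618). With the replicate number as a block, which pairs the iaa17-6 arrays, limma gave adjusted p = 0.0462, and the count of loci that rose became 3. AT5G48500 had a positive difference in both mutants, 0.39 in iaa17-6 and 0.45 in the triple mutant (SE 0.18 in each, limma adjusted p = 0.28 and adjusted p = 0.199). It read 7.04, 6.78 and 6.86 on triple-mutant IAA arrays and 6.62, 6.22 and 6.50 on triple-mutant control arrays, again without overlap. AT2G27830, also without overlap in the triple mutant, read 7.19, 6.98 and 6.79 with IAA and 6.76, 6.43 and 6.49 in control there (log2 0.43, SE 0.27). AT4G36500 had overlapping arrays in iaa17-6, with 8.25, 7.88 and 9.01 with IAA and 8.29, 8.39 and 8.68 in control (log2 -0.08, SE 0.25).

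**Figure D3:**
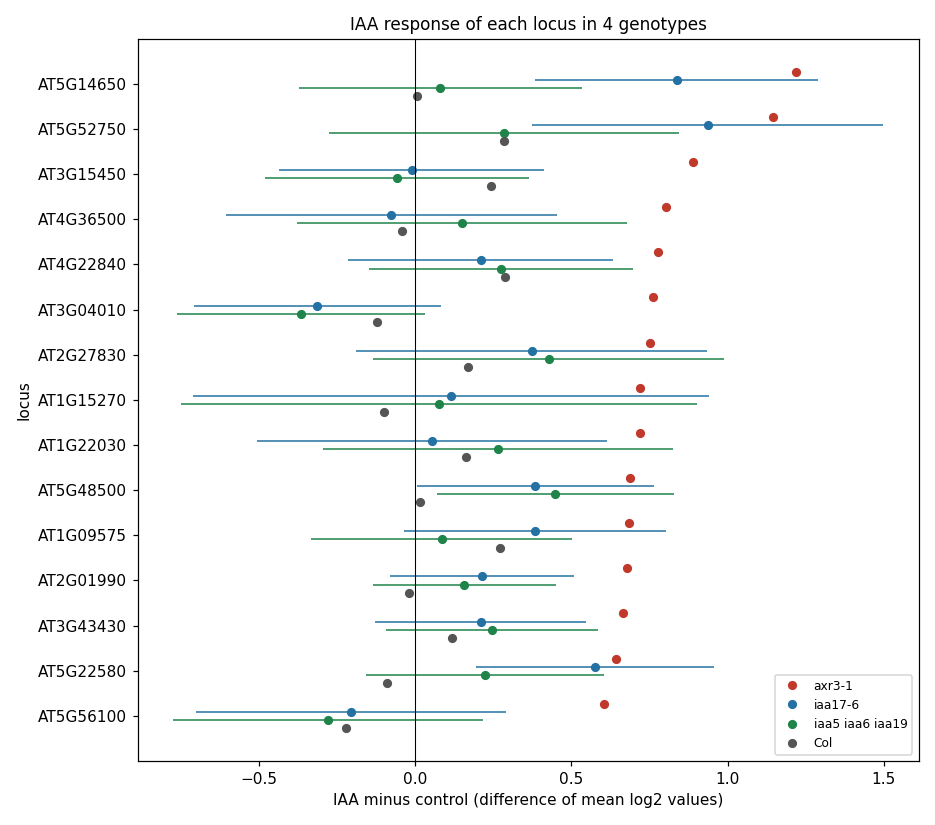
IAA minus control (x axis, difference of mean log2 values of 3 arrays each) of every locus (y axis) in 4 genotypes, with 95% intervals from the limma fit for iaa17-6 and iaa5 iaa6 iaa19. The axr3-1 points lie at 0.60 or more and the Col points within 0.3 of zero by the rule, and the largest iaa17-6 differences are those of AT5G14650 and AT5G52750.

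Over the whole set, the median difference was 0.21 in iaa17-6 and 0.16 in the triple mutant, where the medians of all tested probe sets were 0 and -0.01. It was positive for 11 of 15 loci in iaa17-6 and 12 of 15 in the triple mutant. The share of all probe sets with a positive difference is not given here. The loci also moved together on single arrays, with iaa17-6 IAA replicate 2 the lowest of its group for all 15. Nothing is read from these 2 counts. Every IAA array lay above every control array for 3 loci in iaa17-6 (AT5G14650, AT5G52750 and AT5G22580), where 8.29% of tested probe sets did so. In the triple mutant this held for 3 others (AT2G27830, AT5G48500 and AT3G43430), where 8.58% did so. No locus had all IAA arrays below, against 7.91% and 11.3% of probe sets.

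For some loci the precision was enough to set a limit. The 95% interval lay below 0.6, the smallest difference required in axr3-1, for 6 of 15 loci in iaa17-6 and for 7 of 15 in the triple mutant, and in both mutants for 5. These 5 were AT3G15450, AT3G04010, AT2G01990, AT3G43430 and AT5G56100. The 7 in the triple mutant also include AT5G14650 and AT1G09575, which had triple-mutant arrays at the floor with IAA and in control. Differences at the floor are understated, so for these 2 loci the interval sets no limit. The interval of AT3G04010 ended at 0.08 in iaa17-6 and at 0.03 in the triple mutant, while its difference in axr3-1 was 0.76. It read 6.63, 6.23 and 6.40 with IAA and 6.81, 6.53 and 6.86 in control in iaa17-6. AT3G15450 had 10.42, 10.18 and 10.19 with IAA and 10.41, 10.34 and 10.07 in control in iaa17-6 (log2 -0.01, SE 0.20). For AT1G15270, the interval in iaa17-6 ran from -0.71 to 0.94, so a response as large as in axr3-1 cannot be told from none there.

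Without IAA, the levels in iaa17-6 and the triple mutant were compared with each other, since neither entered the rule. Limma called 0 of 15 loci different, where 0.162% of all probe sets were called (0.0775% higher and 0.0846% lower in iaa17-6), and 2 loci had an unadjusted p under 0.05, beside 1254 of all 14192 probe sets. These were AT5G22580, with 9.02, 8.46 and 9.04 on iaa17-6 control arrays and 7.99, 8.00 and 8.48 on triple-mutant control arrays (log2 0.68, SE 0.18, limma adjusted p = 0.191), and AT3G43430 (log2 0.43, SE 0.16, limma adjusted p = 0.419). AT5G22580 read 9.23, 9.05 and 9.37 on Col control arrays. Its mean control level was below that of Col in all 3 mutants, by -0.64 in axr3-1, -0.38 in iaa17-6 and -1.06 in the triple mutant, without overlap of the arrays and with no test, since the Col and axr3-1 controls entered the rule.

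The members of the set depended on single arrays. With each axr3-1 or Col array left out in turn, 13 to 37 loci met the rule, and 3 of the 15 (AT5G14650, AT4G36500 and AT3G04010) met it in all 12 settings. Without axr3-1 IAA replicate 2 the number was 37, and without axr3-1 control replicates 1 and 2 it was 28 and 23. AT5G56100 met the rule least often, in 8 of 12 settings. On the axr3-1 IAA arrays, replicate 2 was the lowest of the 3 for 11 loci and replicate 3 the highest for 9.

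**Figure D4:**
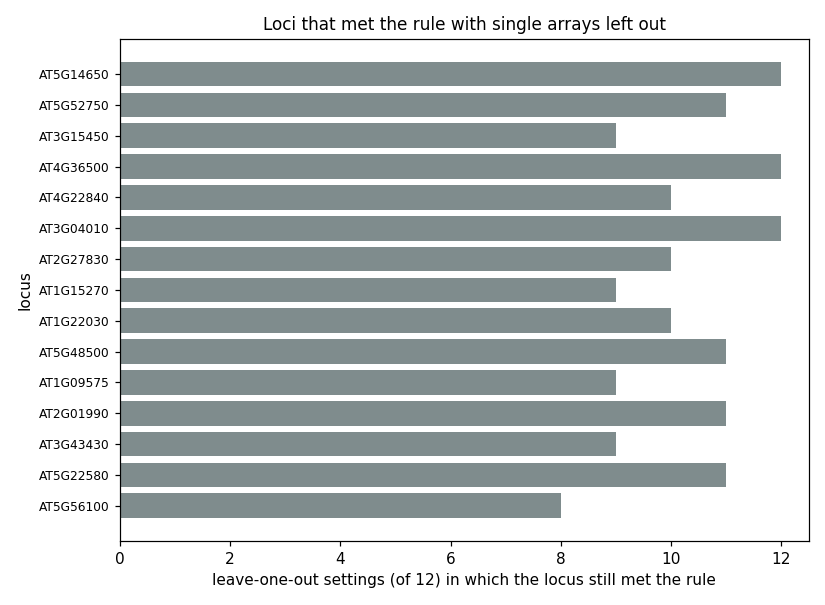
Number of the 12 settings, each with 1 axr3-1 or Col array left out (x axis, bars from 0), in which each locus (y axis) still met the rule. Bars reach 12 for AT5G14650, AT4G36500 and AT3G04010 and are shortest, at 8, for AT5G56100.

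Across the 24 arrays, 6 stood apart within their groups on the first component of the deviations from group means, which held 47.1% of that variance. They were axr3-1 IAA replicate 3, iaa17-6 IAA replicate 3, iaa17-6 control replicate 3, triple-mutant IAA replicate 1, triple-mutant control replicate 1 and Col control replicate 3. The mean deviation of the 15 loci was between 0.16 and 0.23 on each of these 6 arrays, and between -0.28 and 0.16 on the other 18. In iaa17-6 and the triple mutant such arrays lay in both treatments. In axr3-1 the only one was an IAA array (0.18), and in Col the only one was a control array (0.16). Higher values there raise the axr3-1 difference and lower the Col difference. Without the 6 arrays 15 loci met the rule, of which 10 were members, and AT4G22840, AT1G15270, AT1G22030, AT1G09575 and AT3G43430 did not. In iaa17-6, AT5G14650 had a log2 difference of 0.74 without them (limma adjusted p = 0.165) and AT5G52750 of 0.57 (limma adjusted p = 0.163), so that 0 of 15 loci were called.

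The thresholds had close neighbours on either side. Just inside the smallest difference in axr3-1 were AT5G56100 (0.60), AT5G22580 (0.64) and AT3G43430 (0.66), and just outside were AT1G06380, AT4G17245 and AT4G15140 (each 0.60 or 0.59, under the limit of 0.6). Just inside the limit in Col were AT4G22840 (0.29), AT5G52750 (0.28) and AT1G09575 (0.27), and just outside AT5G60680 (0.30), AT2G18980 (0.31) and AT5G65610 (0.34). For the overlap, AT2G27830, AT1G15270 and AT3G15450 had gaps of 0.03, 0.04 and 0.10, and AT1G25400 (-0.11), AT5G26200 (-0.34) and AT3G10040 (-1.08) failed on it alone. For the control level, AT5G56100 (-0.91), AT1G22030 (-0.77) and AT3G15450 (-0.74) were nearest inside, and AT4G18970 (-1.50) was the 1 locus left out on it alone.

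The 15 loci did not lie side by side. By locus code, 3 are on chromosome 1, 2 on chromosome 2, 3 on chromosome 3, 2 on chromosome 4 and 5 on chromosome 5, and none of the 30 adjacent protein-coding genes was a member. Neighbours with a symbol could not be members under the rule, and only 16 of the 30 have a named probe set. Of these neighbours 10 were tested, and their differences in axr3-1 ran from -0.58 to 0.44. The lowest was AT1G15280, beside AT1G15270 (0.72 in axr3-1), and the highest AT5G48490, beside AT5G48500 (0.69 in axr3-1). AT5G48490 differed between genotypes, with 0.44 in axr3-1, 0.08 in iaa17-6, -0.59 in the triple mutant and -0.83 in Col. Both neighbours of AT5G52750, AT5G52740 and AT5G52760, stood at the floor on all 24 arrays.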

How the data were processed

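Values were used on the deposited log2 scale, 1 per probe set on each array. That this scale is log2 was read off the values, since no source names it. How the authors summarized, normalized and floored them is not stated in the labels. The 64 control probe sets and the 8554 at the floor on all 24 arrays were left out, and 14192 were tested. Gene symbols came from the platform annotation given with the table, in which 13513 probe sets name 1 gene, and gene order came from the RefSeq table of TAIR10.1, which matched all 15 loci. No coordinates are printed, since the files name no build, and no sequences were available here. The members and lists were chosen with earlier results of these data known.

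Group means were fitted on all 24 arrays in 1 model with limma 3.58.1 in R 4.3.3 (eBayes, trend on the mean, 16 residual degrees of freedom), two-sided, with Benjamini-Hochberg adjustment over all tested probe sets. The script was tested on simulated data. With 3 arrays in a group, the median SE of a difference between IAA and control was 0.202 for the 15 loci and 0.152 for all tested probe sets, and that of the difference of responses was 0.286 for the 15 loci. Within groups arrays correlated at 0.958 to 0.996, and no pair held the same values. Same-numbered IAA and control arrays shared deviations from their group means in iaa17-6 (correlations 0.16, 0.56 and 0.70) and in the triple mutant (0.84, 0.58 and 0.63). In axr3-1 they did not (-0.05, -0.15 and 0.01), and in Col the correlations were -0.07, 0.32 and 0.50. The main fit left out any pairing, although iaa17-6 and the triple mutant, whose responses were tested, had such shared deviations. An alternative fit used the replicate number as a block. With this block limma called 3 of the 15 loci in iaa17-6 and 0 in the triple mutant. Where all arrays of a group were at the floor, a fold is given as "at least".

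All 15 members were named, with up to 3 of the nearest probe sets that failed on 1 limit alone (1 for the control level). The tables used here hold no protein names, so the planned grouping by product family was not made. Alternatives were other filters, normalizations, fits, limits of the rule and left-out arrays. Leaving out the 6 arrays that stood apart was added after the data were seen.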

Additional observations from a re-analysis of the deposited data

Results flagged for a closer look

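In 3 loci the IAA arrays of a pair of genotypes lay on opposite sides of their control means, and these differences were not tested, because the rule fixed the direction in axr3-1. For AT3G04010 every axr3-1 IAA array lay above the axr3-1 control mean and every iaa17-6 IAA array below the iaa17-6 control mean, with a difference of 0.76 in axr3-1 and -0.31 in iaa17-6. For AT1G15270 the same held against Col, with 0.72 in axr3-1 and -0.10 in Col. Its Col control arrays spread by an SD of 0.57, and replicate 3 among them read 10.06. Its highest Col IAA array and its Col control mean were both 9.45. For AT5G56100 the differences were 0.60 in axr3-1 and -0.22 in Col, and its highest Col IAA array and Col control mean were both 7.19. In both loci the highest Col IAA array was thus barely below the control mean, by far less than the array spread.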

How the results depend on the processing

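The number of loci that met the rule was 15. It was 32 with a smallest difference of 0.5, 4 with 0.8 and 2 with 1, and with single arrays left out it ran from 13 to 37. Quantile normalization and median centring gave 20 each, including all 15. In the IAA response of iaa17-6, 2 loci were past the threshold as reported, 1 without a filter, 1 with array weights (a fit that stopped before full convergence), 0 with only its own groups fitted and 0 without the 6 arrays that stood apart. With a stricter filter on low means, or with floored probe sets removed, it was 0, since AT5G14650 and AT5G52750 were then not tested. Leaving out single arrays gave 0 to 2. With the replicate block it was 3 in iaa17-6 and 0 in the triple mutant and in the difference of responses. In the triple mutant array weights called 2, AT3G04010 lower (log2 -0.47, limma adjusted p = 0.0112) and AT5G48500 higher (log2 0.40, limma adjusted p = 0.0161), and the other 15 alternatives 0. The difference of responses and the comparison of control levels stayed at 0 in all 22 and 16 alternatives. Same-numbered control arrays of iaa17-6 and the triple mutant did not share deviations (-0.12, 0.58 and -0.51), and with the replicate block 0 loci were called there. Where a cause is not stated, it was not tested.

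AT5G14650 kept its direction and its side of the threshold in 7 of 14 alternatives (log2 0.60 to 1.17, limma adjusted p = 0.000137 to 0.342), and AT5G52750 in 5 of 14 (log2 0.55 to 1.26, limma adjusted p = 0.00353 to 0.39). Both were low signals, at the floor on most control arrays, where differences are understated.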

Other observations

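A further 6 genes, which have a symbol and were named after their values were seen, met the same measured criteria as the 15 loci. BGLU28, a beta-glucosidase gene, read 6.97 to 7.26 on axr3-1 IAA arrays and 5.64 to 5.81 on axr3-1 control arrays, and no array of another genotype exceeded the floor. The expansin-like genes EXLA1 and EXLA2 differed by 0.63 and 0.68 in axr3-1, by 0.30 and 0.37 in iaa17-6, by 0.41 and 0.20 in the triple mutant and by 0.17 and 0.19 in Col. EXLA1 was higher in axr3-1 (8.61 with IAA and 7.98 in control) than in Col (7.52 and 7.34), and EXLA2 was lower in axr3-1 control (5.87) than in Col control (6.52). CYP718, a cytochrome P450 gene, differed by 0.76 in axr3-1 and 0.24 in Col, APK1A, a protein kinase gene, by 0.72 and 0.23, and P1R1 by 0.75 and -0.24.

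The rule with its sign turned found 31 locus-code probe sets that were lower with IAA in axr3-1, beside the 15 that were higher. With iaa17-6 in place of axr3-1 it found 8 higher and 7 lower, and with the triple mutant 3 higher and 13 lower. These counts share the Col arrays, and no test was made of their difference.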
